A study of Rattus norvegicus with 6 samples.

Results

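Triglyceride is assembled in the liver by a short chain of enzymes, and 9 mRNAs that encode them were followed here in rats fed a control diet (CD) or a Western diet (WD). The genes were chosen by name, as Acsl1, Acsl5, Gpam, Agpat2, Agpat3, Lpin1, Lpin2, Dgat1 and Dgat2. Each symbol occurred on 1 locus, so the 9 genes are 9 of the 32158 loci with a symbol among 33022 loci in all. Male obesity-prone Sprague Dawley rats that weighed 160 to 190 g at the start received either diet for 2 weeks, the WD being rich in milk fat, sucrose and cholesterol. All animals were fasted overnight and refed their own diet for 1 h, and no genetic change or drug was involved. Liver RNA was taken whole (total RNA) or from a sucrose gradient, which gave a light fraction (mRNAs carrying 3 or fewer ribosomes) and a heavy fraction (4 or more ribosomes). Each of the 6 libraries held the combined RNA of 3 animals of 1 diet. No value therefore has a replicate, no test of the diet was possible, and a lower level per cell cannot be told apart from fewer cells of a type.

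In the pathway, acyl-CoA synthetases first activate fatty acids, a step that also serves oxidation. The mitochondrial acyltransferase encoded by Gpam then places an acyl chain on glycerol-3-phosphate, and the AGPAT enzymes add another to give phosphatidate. Lipins remove the phosphate to leave diacylglycerol, which DGAT enzymes acylate to triglyceride for storage in droplets or export in lipoproteins. In hepatocytes the DGAT2 enzyme is tied mainly to newly made fatty acids, whereas DGAT1 also uses fatty acids that arrive from outside. Several of these genes are known targets of insulin and of the lipogenic factor SREBP-1c, which makes them of interest when a fat and sugar diet is compared with a control diet after refeeding.

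Since ribosome association was measured, the first 20 bases downstream of the annotated transcription start are shown for the 7 genes with an entry in the RefSeq promoter table (assembly GRCr8, 1 start per gene). They are given because mRNAs that begin with a terminal oligopyrimidine tract (a C followed by a run of C or T) are known to respond to mTORC1, the kinase that refeeding activates. Capitals mark the longest run of C or T, read 5′ to 3′ on the transcribed strand.
Acsl1 (chr16:52532373-52532392, minus strand): CCaacacagaactatggaag
Acsl5 (chr1:264294851-264294870, plus strand): tttgTCCCTacgaaaaggga
Gpam (chr1:264175892-264175911, minus strand): cacgaataagCCTCTggagg
Agpat2 (chr3:29826138-29826157, minus strand): agcccggcccgCCCTCTacc
Agpat3 (chr20:10384181-10384200, plus strand): gTggagcaatgaagtgtaag
Lpin1 (chr6:45108923-45108942, minus strand): gagagaaTaagtggggggaa
Lpin2 (chr9:118530355-118530374, plus strand): gTCggggctggcgaggtgca

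None of the 7 windows opened with a C followed by at least 4 bases that are each C or T. Of all 33469 windows of this length, 881 (2.63%) did so, and of 61 windows of ribosomal protein genes 22 (36.1%) did. Agpat2 held the longest run, 6 bases from base 12, whereas Agpat3 and Lpin1 had no 2 neighbouring pyrimidines. A run of at least 4 was found for Acsl5, Gpam and Agpat2, compared with 51.9% of all windows. The windows describe the annotated starts only, and no start used in these livers was measured.

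The values are FPKM (fragments per kilobase of transcript, scaled for library size and between libraries by the authors). This measure per length allows levels of different genes to be compared. Whole numbers of sequenced fragments could be inferred from them for 5 of the 9 genes (Acsl5, Agpat2, Agpat3, Lpin1 and Dgat1). For Acsl1, Gpam, Lpin2 and Dgat2 the search found no whole numbers that explained the values. It stopped at a set largest number, so fragment numbers beyond that could not be found. Each of the unresolved genes has 2 or 3 groups of start sites at its locus, but Lpin1, with inferred numbers, also has 2. The reason was not tested. Where a 95% interval of a ratio is given below, it comes from those fragments (exact binomial, or conditional odds ratio for ribosome density). It compares libraries and covers counting error only, because fragments copied by PCR were not told apart from separate molecules and single rats were not measured. A given FPKM value rested on 2.34 times more fragments in the WD light fraction than in the CD heavy fraction, and on 1.02 to 1.57 times more in the other libraries. A typical (median) gene was covered by 9 fragments in both heavy fractions and by 24 in the WD light fraction. All 6 hepatocyte markers were detected. Their summed level was 75892 FPKM in CD and 68160 FPKM in WD total RNA (2 of 6 higher in WD), 44421 and 39238 FPKM in the light fraction, and 115231 and 121067 FPKM in the heavy fraction. The adipocyte markers Adipoq, Lep, Plin1 and Retn were listed at 0 in all 6 libraries, while Cfd and Fabp4 brought the adipocyte list to 14.3 FPKM in CD and 31.1 FPKM in WD total RNA. All 6 Kupffer cell markers were higher in WD total RNA (summed level 85.4 FPKM, against 57.1 FPKM in CD). The same was true of all 4 endothelial markers found (70.9 against 53.4 FPKM) and of 4 of 5 stellate cell markers (55.6 against 44.1 FPKM). In the light fraction the Kupffer cell, endothelial and stellate sums were 57.7, 48.7 and 56.8 FPKM in CD. They were 67.1, 56.2 and 49.9 FPKM in WD. The heavy fraction held 112, 64.6 and 52.6 FPKM in CD and 156, 62.9 and 79.6 FPKM in WD, in the same order. The part of these differences in the results below was not tested.

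Levels spanned more than 2 orders of magnitude along the pathway. In CD total RNA, Acsl1 stood highest at 1006 FPKM, followed by Dgat2 at 226 FPKM. Gpam (84.8 FPKM), Acsl5 (76.0 FPKM) and Agpat2 (51.2 FPKM) formed a middle group, and Lpin1 (19.7 FPKM), Lpin2 (11.4 FPKM), Agpat3 (7.23 FPKM) and Dgat1 (4.525 FPKM) were the lowest. The first 6 kept this order in WD total RNA, and among the last 3 the order became Dgat1 (6.51 FPKM), Lpin2 (6.23 FPKM) and Agpat3 (5.51 FPKM). With 1 library per diet the spread is unknown, so the order within the middle group and among the last 3 should not be read as a difference. Acsl1 alone made up 67.7% of the summed FPKM of the 9 mRNAs in CD total RNA and 63.1% in WD. The loci are given in Rnor_6.0, the build of the files. Acsl1 lies at chr16:48937455-49003246, Lpin1 at chr6:41799748-41870046, Lpin2 at chr9:119517100-119591533, Agpat2 at chr3:4044541-4055806, Agpat3 at chr20:11114163-11144806 and Dgat1 at chr7:117566367-117576737. Gpam (chr1:275846818-275906686), Acsl5 (chr1:276240702-276290008) and Dgat2 (chr1:164113458-164143818) share a chromosome, and each locus spans the whole gene. At each step with a pair of enzymes, one mRNA was the higher of the pair in all 6 libraries. The ratio of Dgat2 to Dgat1 ran from 14.1 to 49.9, that of Acsl1 to Acsl5 from 7.90 to 23.3 and that of Agpat2 to Agpat3 from 7.07 to 43.2. Lpin1 and Lpin2 were closest, with ratios from 1.26 to 3.65.

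**Figure D1:**
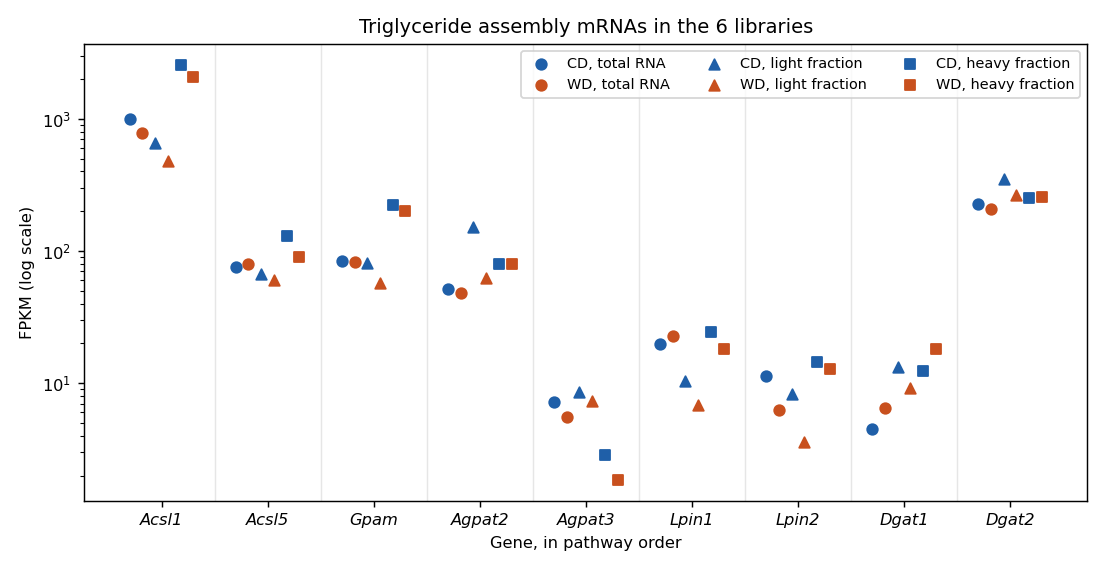
FPKM (log scale) of each of the 9 mRNAs in the 6 libraries, with circles for total RNA, triangles for the light and squares for the heavy fraction, blue for CD and orange for WD; each point is 1 library of 3 pooled rats. For every gene the orange triangle lies below the blue one, and Acsl1 reached 2569 FPKM in the CD heavy fraction while Agpat3 was at 1.85 FPKM in the WD heavy fraction.

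The comparison of WD with CD total RNA asks whether the diet altered mRNA abundance. Abundance was higher in WD for 3 of the 9 mRNAs and lower for 6. Of all 10201 loci compared (symbol given, mean of 1 FPKM or more), 51.1% were higher and 47.0% lower. The median log2 change was -0.079, close to the 0.022 of the loci compared. No gene reached 1.5-fold in WD over CD, against 17.7% of the loci compared, and 1 was at or under 0.75-fold, against 22.7%. Both numbers are those the study set for ribosome density, but there they applied to CD over WD and here to WD over CD, which is not the same cut. Turned to CD over WD, they took in Lpin2 as lower in WD (17.0% of the loci compared) and Dgat1 as higher (23.9%). The 1 exception was Lpin2, whose product dephosphorylates phosphatidate. It went from 11.4 to 6.23 FPKM, a ratio of 0.548 and a log2 change of -0.86. Its relative Lpin1, which is also a transcriptional coactivator, was at 19.7 FPKM in CD and 22.7 FPKM in WD, with 58 and 64 fragments (interval of the ratio, 0.796 to 1.68).

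At the first step, Acsl1 was at 1006 FPKM in CD and 788 FPKM in WD, a ratio of 0.783. Acsl5 was at 76.0 and 79.1 FPKM, with 196 and 195 fragments and an interval of the ratio from 0.849 to 1.28. Gpam, which is often regarded as the entry into glycerolipid synthesis, differed by less than either, at 84.8 and 83.3 FPKM. Agpat2, the enzyme whose loss causes a congenital lack of fat tissue in humans, had 53 fragments in CD and 48 in WD. Its relative Agpat3, at 7.23 and 5.51 FPKM, had 48 and 35 fragments, and its interval of 0.479 to 1.20 included 1. At the last step, Dgat2 was at 226 and 208 FPKM. Dgat1 was higher in WD, at 4.525 and 6.51 FPKM, but this rested on 8 and 11 fragments and the interval of the ratio ran from 0.527 to 4.12. A difference in abundance was thus not detectable at this depth for any of the 5 mRNAs with known fragments. The summed FPKM of all 9 was 1486 in CD and 1248 in WD, a ratio of 0.839, and without Acsl1 the ratio was 0.957.

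**Figure D2:**
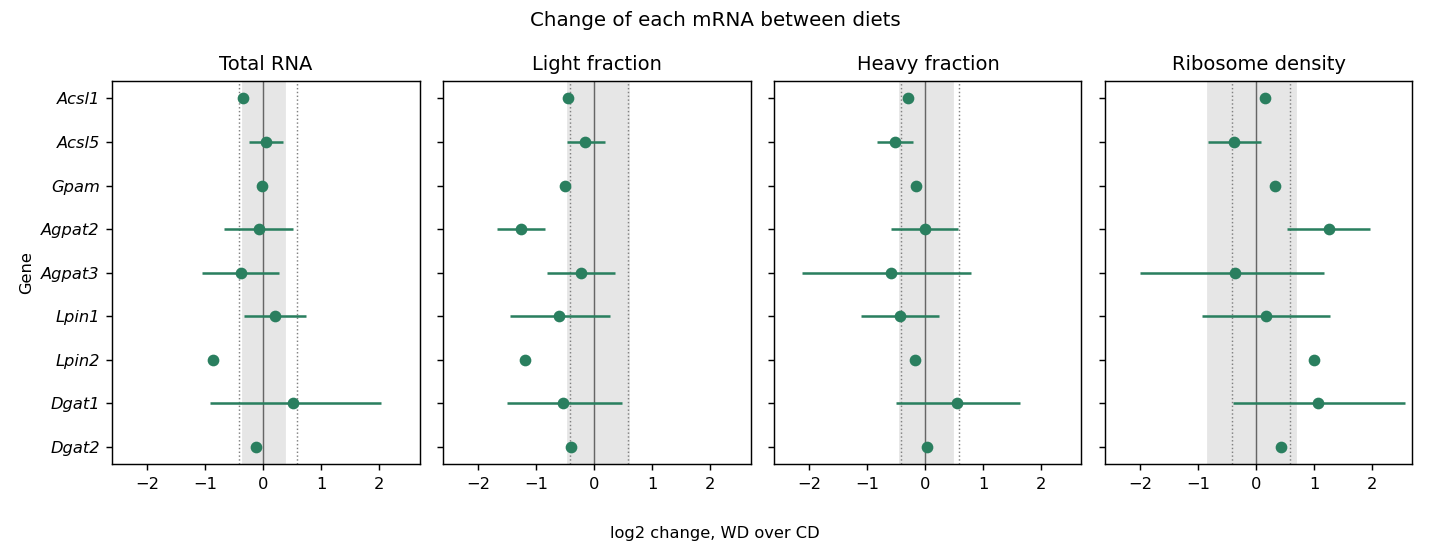
log2 change (WD over CD, horizontal axis) of the 9 mRNAs in total RNA, in the light and heavy fractions and in ribosome density. Points are single comparisons of 2 libraries (4 for ribosome density), horizontal lines are 95% counting intervals where fragments are known, the grey band holds the middle 50% of the loci compared, and dotted lines mark ratios of 0.75 and 1.5. All 9 points of the light fraction lie left of 0, with Agpat2 at -1.26 farthest.

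In the light fraction all 9 mRNAs were lower in WD than in CD. The median log2 change was -0.50, compared with 0.017 for the loci compared, of which 47.2% were lower. In 6 of the 9 the ratio was 0.75 or less, against 26.8% of the loci compared, and none reached 1.5, against 25.9%. With the cut on CD over WD (1.5 or more), 3 remained, Agpat2, Lpin2 and Lpin1, against 20.6%, and none was at or under 0.75, against 32.2%. Agpat2 differed most, with 151 FPKM in CD and 63.0 FPKM in WD. This is a ratio of 0.417 (107 and 97 fragments, interval of the ratio 0.313 to 0.554), which lies lower than all but 5.93% of the loci compared. Its fragments alone were nearly equal, and 1 fragment of the WD light library stood for 0.460 times the FPKM of 1 from CD. All genes share this factor, which allows for the deeper WD light library (median of 24 fragments per gene, against 10 in CD). Lpin2 was next, at 8.28 and 3.58 FPKM, a ratio of 0.432. The genes that followed lay at similar ratios. Lpin1 was at 10.4 and 6.86 FPKM (0.657), Dgat1 at 13.2 and 9.13 FPKM (0.690), Gpam at 81.3 and 57.5 FPKM (0.708) and Acsl1 at 654 and 480.4 FPKM (0.734). Dgat2, at 348 and 263 FPKM, stayed just above the threshold with a ratio of 0.755. Agpat3 (8.60 and 7.30 FPKM) and Acsl5 (67.5 and 60.8 FPKM) differed least, and their intervals included 1. Of the 5 mRNAs with fragments, Agpat2 was the single one whose interval excluded 1.

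The heavy fraction differed less between the diets, although 7 of the 9 mRNAs were again lower in WD, against 50.4% of the loci compared. The median log2 change was -0.18 (-0.015 for the loci compared). The ratio was 0.75 or less in 3 genes, against 25.8% of the loci compared, and none reached 1.5, against 21.7%. The cut on CD over WD took in Agpat3 alone as lower (20.6%) and Dgat1 as higher (26.9%). Acsl5 was at 129 FPKM in CD and 89.8 FPKM in WD, a ratio of 0.695 with 212 and 151 fragments (interval 0.561 to 0.861). Its interval was the only one of the 5 that excluded 1 here. Agpat3 went from 2.84 to 1.85 FPKM, with 12 and 8 fragments. Lpin1 went from 24.55 to 18.2 FPKM, with 46 and 35 fragments, and both intervals included 1. Lpin1 (ratio 0.743) was no longer at or under 0.75 when all loci were centred or with a pseudocount of 1 FPKM (log2 change -0.41 in both), which left 2 genes. Agpat2, which differed most in the light fraction, was at 80.4 and 80.0 FPKM in the heavy fraction, with 53 and 54 fragments (interval 0.668 to 1.48). Dgat2 was also nearly equal, at 253 and 258 FPKM, and Gpam was at 224 and 200.3 FPKM. Acsl1 was at 2569 and 2092 FPKM and Lpin2 at 14.5 and 12.8 FPKM. Dgat1 lay on the other side, at 12.4 and 18.2 FPKM, but 14 and 21 fragments gave an interval of 0.710 to 3.11, which included 1.

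Ribosome density (heavy FPKM divided by light FPKM) placed the 9 mRNAs in a broad order. The authors scaled the libraries to one another, so a ratio of 1 does not mean equal numbers of molecules, but genes can be ranked within a diet. In CD, Acsl1 had the highest ratio (3.93), followed by Gpam (2.76), Lpin1 (2.35), Acsl5 (1.91) and Lpin2 (1.75). Dgat1 (0.940), Dgat2 (0.725), Agpat2 (0.532) and Agpat3 (0.330) lay below 1. In WD this grouping did not hold, since Dgat1 (1.99) lay above Acsl5 (1.48). Nor did it hold in CD with heavy over total RNA, where Dgat1 had the highest log2 value (1.44) and Agpat2 (0.65) lay above Lpin2 (0.35) and Lpin1 (0.32). The intervals of Lpin1 (1.38 to 4.15) and Acsl5 (1.52 to 2.42) did not overlap those of Agpat2 (0.375 to 0.746) and Agpat3 (0.158 to 0.644). Lpin1 and Acsl5 overlapped each other, as did the AGPAT mRNAs, and Dgat1 (0.425 to 2.05) overlapped all 4. Among the loci compared, Acsl1 stood at percentile 92.1 and Agpat3 at percentile 15.6.

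**Figure D3:**
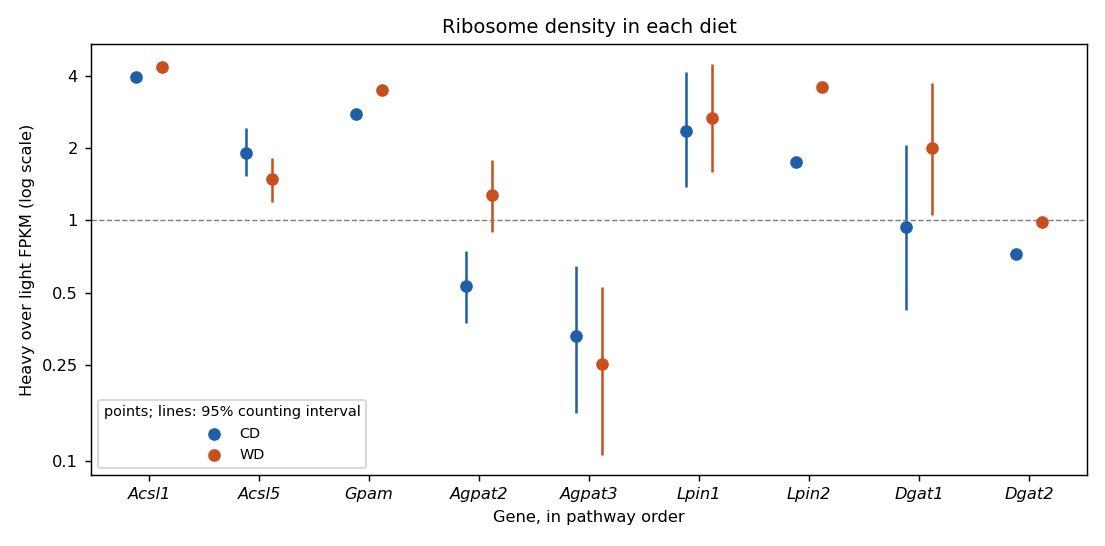
Heavy over light FPKM (log scale) of each mRNA in CD (blue) and WD (orange). Vertical lines are 95% counting intervals, drawn for the 5 genes with known fragments; Acsl1, Gpam, Lpin2 and Dgat2 have none. Agpat2 is at 0.532 in CD and 1.27 in WD and its intervals do not overlap, whereas Agpat3 stays lowest at 0.330 and 0.253.

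The comparison of ribosome density between diets asks whether ribosome association differed apart from abundance, and it uses the same 4 light and heavy libraries as above. Density was higher in WD for 7 of the 9 mRNAs, and the median log2 change was 0.33 (-0.021 for the loci compared, of which 48.3% were higher). The density of 3 of the 9 was 1.5-fold or more, against 27.7% of the loci compared, and none was at most 0.75, against 36.1%. With the study's own cut of CD over WD at or under 0.75, Dgat2 (0.741) was taken in as well, which made 4 genes, against 32.9% of the loci compared, and none was at 1.5 or more, against 30.9%. The 3 genes at 1.5-fold or more in WD over CD were Agpat2, Dgat1 and Lpin2. For Agpat2 the heavy to light ratio was 0.532 in CD and 1.27 in WD. That is a 2.39-fold difference in FPKM with an interval of 1.45 to 3.91, and the heavy FPKM values were nearly equal. For Lpin2 the ratio was 1.75 in CD and 3.57 in WD, and here too the light fraction differed more than the heavy. For Dgat1 it was 0.940 and 1.99, with a lower light and a higher heavy value in WD. The interval for Dgat1 ran from 0.762 to 5.94. The scaling for library size and between libraries enters each of these ratios, for all genes alike, as a factor of 2.12. Fragments alone are not corrected for depth. The median per gene was 24 in the WD light, 10 in the CD light and 9 in both heavy libraries. Ratios of uncorrected fragments therefore do not measure ribosome density. Uncorrected, the heavy to light fragment ratio of Agpat2 was 0.495 in CD and 0.557 in WD, a 1.12-fold difference. That of Dgat1 was 0.875 in both diets. The uncorrected ratio of WD to CD was 0.533 for Lpin1, 0.364 for Acsl5 and 0.361 for Agpat3. A factor shared by all genes cannot change their order, in which Agpat2 stood highest of the 5.

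The other 6 mRNAs lay between 0.75 and 1.5 in WD over CD. Dgat2 went from 0.725 to 0.979, Gpam from 2.76 to 3.48, Lpin1 from 2.35 to 2.66 and Acsl1 from 3.93 to 4.36. Acsl5 and Agpat3 were lower in WD. Acsl5 went from 1.91 to 1.48 (interval of the ratio of ratios, 0.563 to 1.06) and Agpat3 from 0.330 to 0.253 (0.251 to 2.26), so neither difference was detectable at this depth. Within the AGPAT pair, Agpat2 moved up to percentile 61.6 of the loci compared in WD, from 24.9 in CD, whereas Agpat3 stood at 14.1 and 15.6. Whether the pair differed in its response was not tested. The direction for Gpam and Lpin1 depended on the measure. With total RNA as the denominator, their log2 changes were -0.14 and -0.63. By that measure Acsl5 (-0.58) joined Lpin1 at 0.75-fold or less. Lpin2 alone kept a ratio of at least 1.5 (log2 change 0.68), and the changes of Agpat2 and Dgat1 were 0.071 and 0.032.

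Of 34 other genes of glycerolipid assembly and its neighbouring steps, 26 passed the filter of a mean of at least 1 FPKM. The other 8, among them Mogat1, Acsl6 and Fitm1 at 0 in all 6 libraries, were below it. In abundance 10 were higher and 16 lower in WD, with a median log2 change of -0.15. In the light fraction 9 were higher and 17 lower (median -0.23), and 8 of the 26 had a ratio of 0.75 or less, a share near the 26.8% of all loci compared. In the heavy fraction 11 were higher and 15 lower (median -0.10), and in ribosome density 17 were higher and 9 lower (median 0.25). Of all loci compared, 51.1% were higher in abundance, 51.0% in the light fraction, 45.1% in the heavy fraction and 48.3% in ribosome density. Dbi, which encodes the acyl-CoA binding protein that carries activated fatty acids to the acyltransferases, was among the lowest in abundance. It was at 717 FPKM in CD and 440.0 FPKM in WD total RNA, with 298 and 175 fragments (interval of the ratio, 0.506 to 0.742), and its log2 change was -1.43 in the light and -1.02 in the heavy fraction. Cds1, which diverts phosphatidate to CDP-diacylglycerol, was lowest, but with 4 and 2 fragments. Lpin3, the third lipin, had the highest change in abundance, at 1.79 FPKM in CD and 4.06 FPKM in WD (6 and 13 fragments, interval 0.803 to 7.27). Tmem68 followed with 4 and 7 fragments.

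In the light fraction Slc27a4, a fatty acid transport protein with acyl-CoA synthetase activity, was lowest with 6 and 4 fragments. It was also lowest in the heavy fraction with 8 and 2. Lpin3 and Gpd1l were highest in the light fraction, with 2 and 8 and with 4 and 15 fragments. Plpp1, a phosphatidate phosphatase of the cell surface, was next to lowest in the heavy fraction and lowest in ribosome density (log2 change -1.50), from 10 heavy and 9 light fragments in CD and 4 and 22 in WD. Lpin3 and Agpat1 had the highest heavy fraction changes. Agpat1 was listed at 0 in the CD heavy fraction and was at 2.52 FPKM in WD, so no fold is given for its heavy fraction or its ribosome density. Tmem68, next in ribosome density, had 1 heavy fragment in CD and 3 in WD. Mttp, the transfer protein that loads triglyceride onto nascent lipoproteins, differed from all 9 mRNAs in its light fraction, which was higher in WD. It was at 20.9 FPKM in CD and 34.2 FPKM in WD (62 and 221 fragments). Its heavy fraction was lower in WD, like that of 7 of the 9, at 44.1 and 36.7 FPKM (122 and 104 fragments). Its ribosome density was lower in WD, with a log2 change of -0.97 and an interval of the ratio from 0.339 to 0.759.

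**Figure D4:**
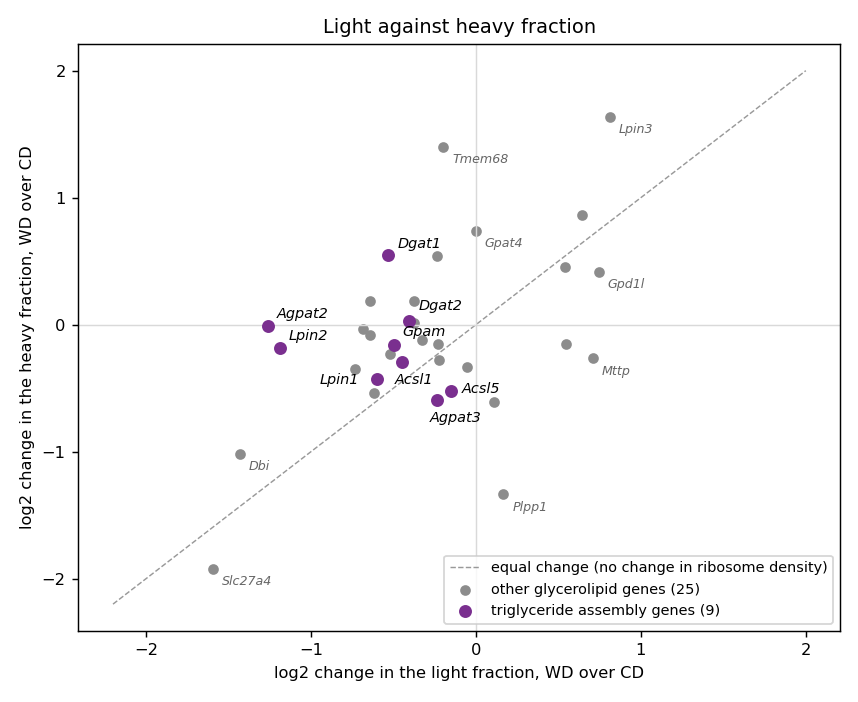
log2 change (WD over CD) in the light fraction (horizontal axis) against that in the heavy fraction (vertical axis), for the 9 triglyceride assembly mRNAs (purple) and the other glycerolipid genes that passed the filter (grey; Agpat1, listed at 0 in the CD heavy fraction, is not drawn). Points above the dashed line had a higher ribosome density in WD; 7 of the 9 purple points do, and all 9 lie left of 0, while Mttp lies to the right and below the line.

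Across the 6 libraries, the profile of the 9 mRNAs (the median of their log2 levels, each centred on its own mean) was highest in the CD heavy fraction (0.65) and lowest in the WD light fraction (-0.42). Among 3798 well expressed loci (mean of 10 FPKM or more), those with the smallest root mean square difference from it were Gbe1 (0.092 on the log2 scale), Usp47 (0.10) and Cmtr1 (0.11). Gbe1, the glycogen branching enzyme, was at 307 and 239.8 FPKM in CD and WD total RNA, at 276 and 204 FPKM in the light fraction and at 485 and 369.7 FPKM in the heavy fraction. Of the 9 genes themselves, Acsl5 was nearest to their median profile (0.16) and Agpat3 farthest (1.07). Agpat3 was also the one gene lower in the heavy fraction than in total RNA in both diets, and Lpin1 was so in WD.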

How the data were processed

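The authors used TopHat for alignment to the rat genome (Rnor_6.0) and Cufflinks for abundance. The annotation is not given in the sources used here. The deposited values are FPKM per locus, scaled between libraries by the authors with Cuffnorm, with the bounds Cufflinks gives for each. Libraries were made after ribosomal RNA was depleted. From these values, log2 changes were computed after adding 0.1 FPKM. Loci compared had a symbol, a successful estimate in all 6 libraries and a mean of at least 1 FPKM. Fragments were inferred as the smallest whole numbers, up to a set largest number, that 1 step per gene and 1 factor per library explain. This succeeded for 75.1% of 12460 genes and for 0.289% after values were jittered by 1%. The method was tested on simulated data. Multiples of the inferred numbers would give the same FPKM. In the other glycerolipid list, the 2 highest and 2 lowest changes of each comparison are named. The genes and lists were chosen with earlier results of these data known. Tables were handled in Python 3.11.15 (pandas 2.3.3, numpy 2.4.6), intervals came from scipy 1.17.1, and plots from matplotlib 3.10.9. The thresholds of 1.5 and 0.75 were applied to WD over CD. The study's direction, CD over WD, was added as an alternative after the data were seen. Other alternatives were other pseudocounts, filters, scalings and the heavy fraction over total RNA.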

Additional observations from a re-analysis of the deposited data

How the results depend on the processing

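No paired analysis was possible because each group holds 1 library. With each library rescaled to the same sum, which moved the median of the loci compared to 0.12 (abundance), -0.29 (light), -0.039 (heavy) and 0.28 (ribosome density), the median log2 change of the 9 mRNAs was 0.017 (abundance, 5 higher and 1 at least 1.5-fold), -0.85 (light), -0.20 (heavy) and 0.66 (ribosome density, 5 at least 1.5-fold). Relative to these shifts, the abundance median stayed below and the density median above that of the loci compared. Under this scaling the abundance changes of Agpat2 (0.017) and Gpam (0.070) and the WD density of Dgat2 (0.28) changed sign. Centring on all loci gave -0.10 (abundance), -0.16 (heavy; Agpat2 became 0.0078), -0.52 (light), 0.36 (density change) and 0.79 (CD density). A mean of at least 10 FPKM, which leaves 7 genes, gave -0.026 for abundance and -0.16 for the heavy fraction, where a pseudocount of 1 FPKM gave -0.17. Of the 4069 loci at that level, 696 were at least 1.5-fold and 1106 at most 0.75-fold in the light fraction. In the heavy fraction 541 and 783 were, and in ribosome density 947 and 1122. With total RNA as the denominator of ribosome density, the median change was 0.032, with 1 gene at least 1.5-fold, 2 at most 0.75-fold (Lpin1 at -0.63 and Acsl5 at -0.58), and Gpam at -0.14. By that measure the median log2 density was 0.65 in CD (8 above 0; Agpat2 0.65, Dgat1 1.44, Dgat2 0.16) and 0.72 in WD (Dgat2 0.31, Lpin1 -0.32). Median log2 density was 0.80 in CD and 0.99 in WD in the main measure, 0.78 and 1.29 after rescaling. All 9 light fraction changes were below 0 under each scaling and pseudocount tried. With the thresholds on CD over WD, chosen after seeing the data, the genes taken in as higher in WD were 1 (abundance), 1 (heavy) and 4 (ribosome density). Those taken in as lower were 1 (abundance), 3 (light) and 1 (heavy). Depth limits the rest, since Dgat1 had 8 to 24 and Agpat3 8 to 72 fragments per library.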
